A study of Mus musculus with 6 samples.

Results

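Npas4, the genes of its dimer partners Arnt and Arnt2, and its reported targets Bdnf, Plk2, Nptx2, Rgs2 and Ptgs2 were followed in mouse hippocampus, as 8 of the 52550 genes of the deposited count table. The members were picked by name, and each matched a single row. All 8 had enough counts to be tested, among 16758 genes that did. The animals were male mice of the C57BL/6J strain, and 1 hippocampal library was made per mouse. In 3 mice (TAF15 OE) an adeno-associated virus (AAV) labelled CaMKIIα-TAF15 was injected into CA1 on both sides at 8 weeks of age, and 3 mice (Control) received a control AAV in the same way. The labels carry "31 days" for both groups, and all 6 animals thus share surgery and a virus. CaMKIIα is the name of a promoter active in excitatory neurons, whereas the RNA was taken from whole hippocampus, so the libraries also hold cells and subfields outside the injected field. The content of the control virus is not given in the labels. The series title ties TAF15, an RNA-binding protein that also associates with the transcription factor TFIID, to memory and to transcription of Npas4.

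NPAS4 is a neuronal transcription factor of the bHLH-PAS family, whose members bind DNA only as dimers. Its gene is nearly silent in resting neurons and is switched on quickly by calcium entry through synaptic activity, without need for new protein, and the RNA is short-lived. The protein pairs with ARNT or ARNT2, which are present at all times, and the dimer occupies promoters and enhancers of activity-dependent genes. In the hippocampus it is known for its part in contextual memory and in adjusting the inhibitory synapses that pyramidal neurons receive.

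Of the promoters of the gene and its targets, 4 are printed here because the results below set the first against the others. A different motif is marked in Npas4 than in the targets, so the capitals do not by themselves show a difference in sequence. They run 5′ to 3′ on the strand of the gene, from 250 bases before the annotated start to 50 bases after it, and come from RefSeq on build GRCm38.p6. In the window of Npas4 (chr19:4989922-4990221, minus strand) capitals mark the letters TGACG or their reverse complement CGTCA, the half-site of the cyclic AMP response element (CRE) to which the factor CREB binds. In the windows of Plk2 (chr13:110394794-110395093, plus strand), of the third of the 7 annotated starts of Bdnf (chr2:109692186-109692485, plus strand) and of Rgs2 (chr1:144004100-144004399, minus strand) capitals mark TCGTG or its reverse complement CACGA, the core that NPAS4 dimers read.
Npas4: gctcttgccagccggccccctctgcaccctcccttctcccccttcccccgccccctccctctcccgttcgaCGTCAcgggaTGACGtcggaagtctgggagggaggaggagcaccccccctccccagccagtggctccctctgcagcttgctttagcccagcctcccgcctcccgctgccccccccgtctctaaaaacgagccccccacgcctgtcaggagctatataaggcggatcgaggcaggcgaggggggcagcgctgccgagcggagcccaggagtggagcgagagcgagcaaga
Plk2: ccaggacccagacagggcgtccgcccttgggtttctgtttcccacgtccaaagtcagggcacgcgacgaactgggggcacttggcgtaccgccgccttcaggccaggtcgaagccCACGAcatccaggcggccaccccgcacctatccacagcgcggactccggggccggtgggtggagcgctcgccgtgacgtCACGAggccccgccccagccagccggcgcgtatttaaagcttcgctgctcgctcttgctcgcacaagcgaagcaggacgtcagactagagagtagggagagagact
Bdnf: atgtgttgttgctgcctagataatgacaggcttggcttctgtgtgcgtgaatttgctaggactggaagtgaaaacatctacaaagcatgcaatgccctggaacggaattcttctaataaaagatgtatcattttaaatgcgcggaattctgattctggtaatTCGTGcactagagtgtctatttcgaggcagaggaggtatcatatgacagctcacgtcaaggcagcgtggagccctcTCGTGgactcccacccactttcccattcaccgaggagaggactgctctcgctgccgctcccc
Rgs2: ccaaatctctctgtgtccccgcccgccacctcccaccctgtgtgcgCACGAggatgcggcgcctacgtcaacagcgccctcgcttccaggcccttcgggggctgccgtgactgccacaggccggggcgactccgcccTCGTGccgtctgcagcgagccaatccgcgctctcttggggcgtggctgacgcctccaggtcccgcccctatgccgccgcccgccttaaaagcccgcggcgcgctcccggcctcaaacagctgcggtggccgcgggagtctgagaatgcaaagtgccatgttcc

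Npas4 held 2 CRE half-sites, from -179 to -175 and from -169 to -165 with the first transcribed base as 0, and no TCGTG. Plk2 held 2 TCGTG cores, from -135 to -131 and from -56 to -52, and the latter shares 2 letter positions with 1 of its 3 CRE half-sites, at -59 to -55. The printed Bdnf window held TCGTG from -88 to -84 and from -12 to -8, with a CRE half-site at -35 to -31 between them, and Rgs2 held 2 of each. Of the other Bdnf windows, the first had 2 TCGTG cores, the second 1 and the rest none. Ptgs2 had no TCGTG but a CRE half-site from 13 to 17, overlapping an E-box (CACGTG, the same letters on both strands) from 16 to 21. Arnt held 3 CRE half-sites, of which 2 overlap, and Arnt2 held none of the 3 motifs. Both strands were searched, and among 32851 windows of the same length 16% held TCGTG, 20.8% the CRE half-site and 7.15% the E-box. These are letter matches and were not measured as bound sites. A total of 7 members had a window in the table, and Nptx2 is named only.

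**Figure D1:**
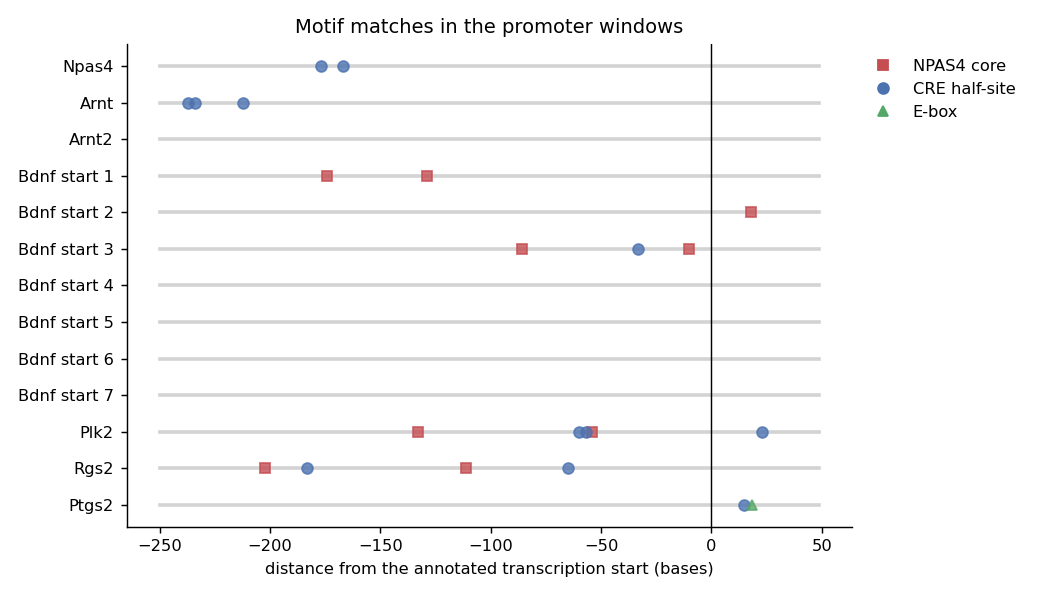
Positions of 3 motifs in the 300-base promoter windows of 7 genes, 7 of the windows belonging to Bdnf. The horizontal axis is the distance in bases from the annotated start (vertical line), squares are NPAS4 cores (TCGTG), circles CRE half-sites (TGACG) and the triangle an E-box (CACGTG), on either strand. Npas4 shows 2 CRE half-sites and no NPAS4 core, while Plk2, Rgs2 and 3 of the Bdnf windows carry NPAS4 cores. Plk2, Rgs2 and the third Bdnf window also carry CRE half-sites, and the target Ptgs2 carries no NPAS4 core.

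The 6 libraries held 14965464 to 16067000 counts each. Taf15 was 4.27-fold higher in TAF15 OE (log2 fold change 2.1, SE 0.086, adjusted p = 4.97e-07), with 795 to 958 counts in Control and 3661 to 4477 in TAF15 OE, in accord with the labels. Across the transcriptome 2559 of 16758 genes were called, 1562 higher and 997 lower. The share of calls that were higher was 61.0%, and 71.97% with libraries scaled by total counts alone, 98.1% with presynaptic scaling (explained below) and 71.1% by limma on FPKM. Control 1 and TAF15 OE 1 stood apart from the other 4 libraries on the second principal component (21.7% of the variance). Their 5 choroid plexus markers summed to 143 CPM (counts scaled by the TMM-adjusted library size) and 1516 CPM, against 4235 to 4914 CPM in the others, so results are also given without these 2 libraries. Cell type markers moved with the groups. The 9 excitatory neuron markers summed to 8725 to 10506 CPM in Control and 5877 to 7340 CPM in TAF15 OE, with 5 called lower and 0 higher. The 9 microglia markers summed to 422 to 468 CPM in Control and 827 to 1235 CPM in TAF15 OE, with 8 called higher and 0 lower. The 6 astrocyte markers (4824 to 6058 against 8398 to 9209 CPM, 4 higher), the 5 oligodendrocyte markers (4178 to 4532 against 5204 to 6698 CPM, 4 higher), the 7 endothelial markers (175 to 226 against 244 to 310 CPM, 3 higher) and the 5 meningeal fibroblast markers (110 to 159 against 181 to 201 CPM, 2 higher) also did not overlap between the groups. The 7 interneuron markers did (690 to 761 against 603 to 708 CPM, 2 lower), and 0 choroid plexus markers were called. No marker was at 0 in any library. In tissue RNA, fewer cells of a type and less RNA per cell cannot be told apart.

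Npas4 RNA was lower in every TAF15 OE mouse than in any Control mouse, and it was the member with the largest change. Npas4 (ENSMUSG00000045903, chromosome 19, 4984355 to 4989971, minus strand, GRCm38) is protein-coding and overlaps no other annotated gene. In GENCODE M21, the source of the overlaps, it runs to 4990316, past the printed promoter window, which ends at 4990221. Bases past that window were not searched for motifs. Npas4 stood at 18.9, 17.2 and 19.5 CPM in Control 1, 2 and 3 and at 4.92, 3.35 and 9.23 CPM in TAF15 OE 1, 2 and 3, from 260 to 293 and from 51 to 152 counts. The Control mice lay close together and the TAF15 OE mice far apart: the SD was 6.38% of the mean in Control (18.6 ± 1.19 CPM, n = 3) and 52.1% in TAF15 OE (5.83 ± 3.04 CPM, n = 3), the widest relative spread of any member in either group. TAF15 OE 3, the highest of its group for Npas4, was also the highest for Taf15 (272 CPM, against 249 and 241 CPM in TAF15 OE 1 and 2), and the lowest of its group for Bdnf, Nptx2 and Ptgs2. Npas4 fell by 1.66 on the log2 scale (SE 0.33, 95% interval -2.43 to -0.89, adjusted p = 0.0177), so that its level in TAF15 OE was 0.316 of that in Control.

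The size of the fall held up better than its call. With 1 library left out at a time the log2 fold change lay between -2.17 (without TAF15 OE 3) and -1.41 (without TAF15 OE 2). Leaving out any Control mouse took the adjusted p past the threshold, to 0.0586 (Control 1), 0.0559 (Control 2) and 0.0536 (Control 3), as did leaving out TAF15 OE 1 (0.0760). With the first library of each group removed at once, the log2 fold change was -1.56 (adjusted p = 0.152). Scaling the libraries on 26 presynaptic genes, of which 19 were called lower (16421 to 17485 CPM in Control, 13522 to 14282 CPM in TAF15 OE), moved the median of all tested genes from 0.026 to 0.32. With this scaling 41.6% of all genes were called, nearly all higher. Npas4 was then at -1.37 (SE 0.33, adjusted p = 0.0161), which is -1.69 relative to that median, against -1.69 under the usual scaling. This scaling shifts all genes nearly alike, so a value relative to the median hardly can change and is no test of the fall. The same holds for the values relative to the median given for other members below. In the authors' deposited table Npas4 has a log2 fold change of -1.70 and an adjusted p-value of 1e-08. It is the only member marked significant there, as are 558 of all 30821 genes in that table (1.81%). Of these 30821 genes, 13762 have no adjusted p-value, so the share is smaller than it would be over the genes that have one. The smallest absolute log2 fold change so marked is 1.00.

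**Figure D2:**
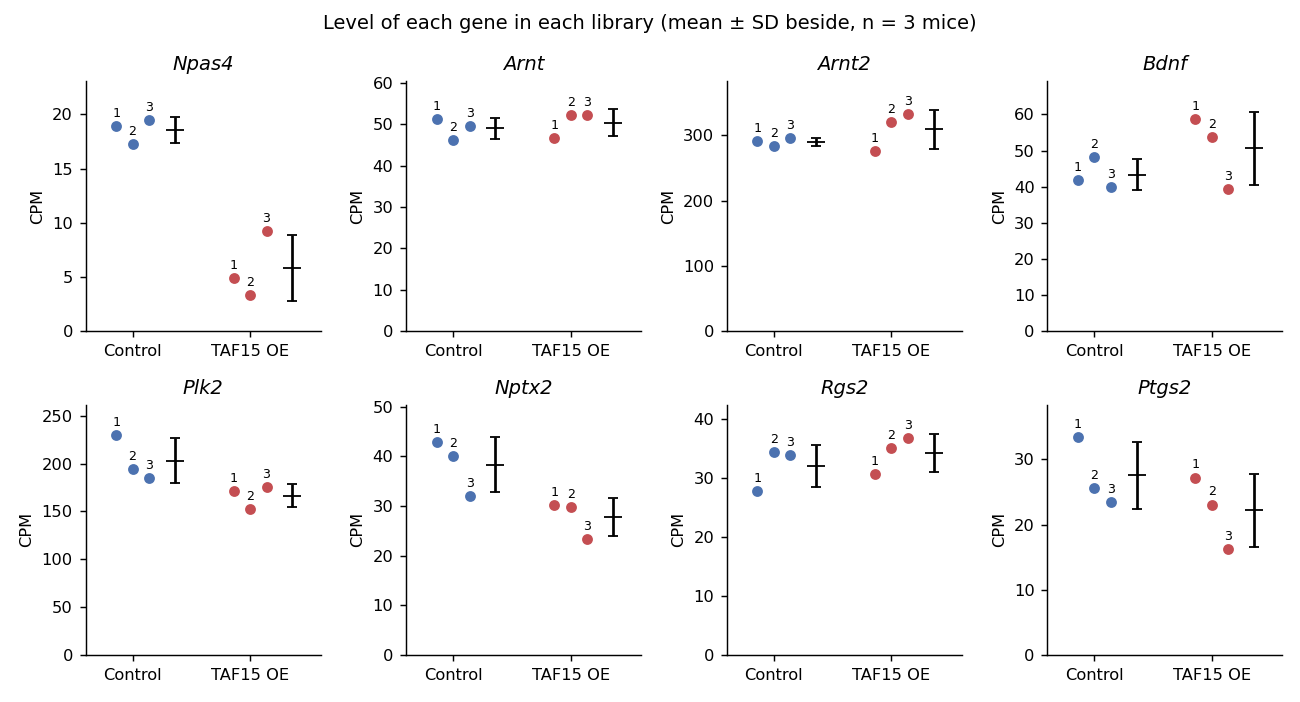
CPM of each of the 8 genes in each library, with the replicate number above each point and the mean ± SD (n = 3 mice) beside each group. Every axis starts at 0. Npas4, Plk2 and Nptx2 do not overlap between Control (blue) and TAF15 OE (red), and the other 5 genes do.

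The genes of the dimer partners did not pass the test. Arnt2 (ENSMUSG00000015709, chromosome 7, 84246278 to 84410176, minus strand) encodes the partner that is mostly neuronal. It stood at 291, 283 and 296 CPM in Control 1, 2 and 3 and at 276, 320 and 333 CPM in TAF15 OE 1, 2 and 3. The TAF15 OE values lay on both sides of the Control values, and the log2 fold change was 0.094 (SE 0.077, 95% interval -0.074 to 0.26, adjusted p = 0.462). Arnt (ENSMUSG00000015522, chromosome 3, 95434388 to 95497240, plus strand), which encodes the partner found in most tissues, also as partner of the hypoxia and dioxin receptor factors, stood at 51.3, 46.2 and 49.6 CPM in Control 1, 2 and 3. It was at 46.7, 52.3 and 52.1 CPM in TAF15 OE 1, 2 and 3, and the groups overlapped, the lowest library of each lying side by side. Its log2 fold change was 0.041 (SE 0.082, 95% interval -0.14 to 0.22, adjusted p = 0.796). These intervals reach from -9.22% to 16.5% of the Control level for Arnt and from -5.01% to 19.98% for Arnt2. The spread between Control mice was small, with an SD of 2.22% of the mean for Arnt2 and 5.32% for Arnt. An antisense gene, Gm30873, shares exon bases with Arnt2 and had 0 to 10 counts per library, against 4268 to 5479 for Arnt2.

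On FPKM (fragments scaled by transcript length and library total), which allows levels of different genes to be set side by side, Npas4 can be read against its partners, as another view of its fall. Npas4 stood at 15.3%, 14.3% and 15.5% of the Arnt2 level in Control 1, 2 and 3, and at 4.18%, 2.46% and 6.51% in TAF15 OE 1, 2 and 3. Against Arnt it stood at 90.3%, 91.3% and 96.2% in Control and at 25.7%, 15.7% and 43.2% in TAF15 OE. All TAF15 OE libraries were below all Control libraries in both measures. The exact two-sided permutation test gave p = 0.1 for each, the smallest that 3 against 3 samples allow, and adjusted p = 0.167 over the 5 ratios tested, so neither passed, nor could it at this size. The relation of the partners to each other overlapped between the groups, with Arnt2 at 6.17 ± 0.240 times the FPKM of Arnt in Control and 6.39 ± 0.243 times in TAF15 OE (n = 3 each, exact permutation p = 0.5, adjusted p = 0.625).

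Among the 5 targets, Nptx2 fell, Plk2 lay just short of the test, and Bdnf, Rgs2 and Ptgs2 did not pass it. With Npas4 this made 2 of 8 members called, both lower, where 15.3% of all tested genes were called (5.95% lower and 9.32% higher). The groups did not overlap in 3 members, Npas4, Plk2 and Nptx2, all lower in TAF15 OE, against 34.6% of all tested genes (15.5% lower). The median log2 fold change of the 8 was -0.12, against 0.026 over all tested genes. The members were chosen with these results known, and their share of calls was not tested against the rest. The summed excitatory neuron markers were lower in the same libraries (8725 to 10506 CPM in Control, 5877 to 7340 CPM in TAF15 OE), and their part in the falls of Npas4 and Nptx2 was not tested.

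Nptx2 (ENSMUSG00000059991, chromosome 5, 144545902 to 144557478, plus strand) encodes neuronal pentraxin 2, a secreted protein that gathers AMPA receptors at excitatory synapses onto interneurons. It stood at 42.9, 40.1 and 32.0 CPM in Control 1, 2 and 3 and at 30.3, 29.7 and 23.4 CPM in TAF15 OE 1, 2 and 3. The third library was the lowest of each group, and the highest TAF15 OE library lay just under the lowest Control library. Nptx2 fell by 0.46 on the log2 scale (SE 0.13, 95% interval -0.76 to -0.17, adjusted p = 0.0380), to 0.725 of its Control level. Leaving out Control 1 (log2 fold change -0.38, adjusted p = 0.129), Control 2 (-0.43, 0.130), TAF15 OE 2 (-0.53, 0.0783) or TAF15 OE 3 (-0.36, 0.106) ended the call. It held with the first library of each group removed (-0.47, adjusted p = 0.0414). It was also lost on FPKM with limma-trend (adjusted p = 0.101 with a pseudocount of 1 and 0.0979 with 0.1). Under presynaptic scaling it stood at -0.17 (adjusted p = 0.279), and at -0.49 relative to the median of all genes. Set against its relative Nptx1, which was not called (-0.44, adjusted p = 0.376), the groups overlapped. Nptx2 was 8.87 ± 1.80% of the Nptx1 FPKM in Control and 8.998 ± 1.85% in TAF15 OE (n = 3 each, exact permutation p = 1, adjusted p = 1).

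Plk2 (ENSMUSG00000021701, chromosome 13, 110395046 to 110400844, plus strand) encodes a polo-like kinase that is induced by activity and weakens excitatory synapses on overactive neurons. It stood at 230, 195 and 185 CPM in Control 1, 2 and 3 and at 171, 153 and 176 CPM in TAF15 OE 1, 2 and 3. Control 1 was the highest library, and the groups were separated by the gap between Control 3 and TAF15 OE 3. The log2 fold change was -0.29 (SE 0.090, 95% interval -0.48 to -0.089, adjusted p = 0.0528), or 0.820 of the Control level. The gene was called with the size factors of DESeq2 in the same fit (-0.31, adjusted p = 0.0442). DESeq2 itself also called it (adjusted p = 0.0178, with 17.2% of all genes called). Without a filter it was called as well (adjusted p = 0.00121), with an SE of 0.079, against 0.090 in the reported fit. That fit called 3576 of 30821 genes (11.6%), a smaller share but more genes than the 2559 of 16758 in the reported fit. Plk2 was also called without TAF15 OE 1 (-0.33, adjusted p = 0.0459). It was not called with any other single library left out, with -0.19 without Control 1 (adjusted p = 0.194) as the smallest change and -0.24 without TAF15 OE 2 (0.184). Its sign turned under presynaptic scaling (0.010, adjusted p = 0.922), where it was -0.31 relative to the median of all genes. In the authors' deposited table Plk2 and Nptx2 have adjusted p-values of 0.0148 and 0.00935 and log2 fold changes of -0.32 and -0.49, and neither is marked significant. An adjusted p-value under 0.05 is given there to 16% of the genes that have one.

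Bdnf (ENSMUSG00000048482, chromosome 2, 109674700 to 109727007, plus strand) encodes brain-derived neurotrophic factor, the best known target of NPAS4 and a growth factor needed for lasting synaptic change. It stood at 41.9, 48.1 and 39.8 CPM in Control 1, 2 and 3 and at 58.8, 53.7 and 39.4 CPM in TAF15 OE 1, 2 and 3. The first 2 TAF15 OE mice were above every Control mouse and the third was below them all. The log2 fold change was 0.23 (SE 0.14, 95% interval -0.099 to 0.55, adjusted p = 0.344), an interval from -6.66% to 46.5%. A fall of the size seen for Npas4 or Nptx2 lay outside this interval. Without TAF15 OE 3 the gene was called higher (0.37, adjusted p = 0.0485), as under presynaptic scaling (0.51, adjusted p = 0.0142), which is 0.19 relative to the median of all genes. Without TAF15 OE 1 it was at 0.080 (adjusted p = 0.762), and without Control 1 and TAF15 OE 1 at 0.054 (adjusted p = 0.866). The counts are per gene, so transcripts from the 7 annotated starts, of which neurons use several in response to activity, were summed. The antisense gene Gm45346 shares exon bases with Bdnf and had 0 to 2 counts per library, against 598 to 921 for Bdnf.

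Rgs2 (ENSMUSG00000026360, chromosome 1, 143999338 to 144004161, minus strand) encodes a regulator that speeds the shut-off of G proteins of the Gq class. It stood at 27.8, 34.4 and 33.8 CPM in Control 1, 2 and 3 and at 30.6, 35.1 and 36.8 CPM in TAF15 OE 1, 2 and 3. Library 1 was the lowest of each group, and the groups overlapped. The log2 fold change was 0.095 (SE 0.11, 95% interval -0.14 to 0.33, adjusted p = 0.6196), an interval from -9.55% to 26.1%.

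Ptgs2 (ENSMUSG00000032487, chromosome 1, 150100031 to 150108227, plus strand) encodes cyclooxygenase 2, which makes the precursor of prostaglandins and is induced by activity in excitatory neurons. It stood at 33.4, 25.7 and 23.5 CPM in Control 1, 2 and 3 and at 27.2, 23.1 and 16.2 CPM in TAF15 OE 1, 2 and 3. Within each group library 1 was the highest and library 3 the lowest, and the groups overlapped. The log2 fold change was -0.31 (SE 0.20, 95% interval -0.79 to 0.16, adjusted p = 0.365), an interval from -42.1% to 11.8%. Single libraries moved this value, to -0.15 without Control 1, -0.14 without TAF15 OE 3 and -0.51 without TAF15 OE 1 (adjusted p = 0.712, 0.652 and 0.127). It was called without a filter (-0.34, adjusted p = 0.0375), where its SE was 0.12, against 0.20 in the reported fit. Ptgs2 stood at -0.021 under presynaptic scaling, which is -0.34 relative to the median of all genes. Set against Ptgs1, the cyclooxygenase gene of microglia and other non-neuronal cells in brain, the groups separated. Ptgs2 was at 2.23, 2.04 and 1.64 times the FPKM of Ptgs1 in Control 1, 2 and 3, and at 0.910, 0.992 and 0.851 times in TAF15 OE 1, 2 and 3. The exact permutation p was 0.1, the smallest possible, with adjusted p = 0.167. Ptgs1 itself was called higher, as given below. The microglia markers rose in the same libraries, from 422 to 468 CPM in Control to 827 to 1235 CPM in TAF15 OE in sum, and their part in this ratio was not tested.

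**Figure D3:**
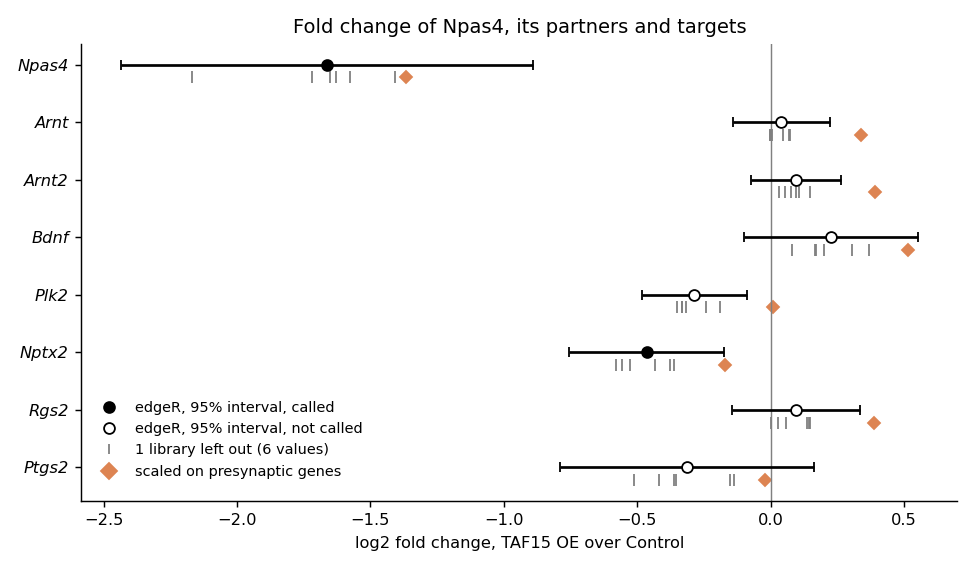
Log2 fold change of each gene, TAF15 OE over Control, with its 95% interval (filled circles passed edgeR's test at adjusted p below 0.05, open circles did not). Grey ticks give the 6 values with 1 library left out, and diamonds the value with libraries scaled on presynaptic genes. Npas4 and Nptx2 are called, and under presynaptic scaling every gene moves to the right and Plk2 turns from -0.29 to 0.010.

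Set side by side per length, Plk2 and Arnt2 were the most abundant members and Npas4 the least. In Control the mean FPKM was 44.4 ± 4.39 for Plk2, 37.0 ± 0.805 for Arnt2, 14.8 ± 2.07 for Nptx2, 8.68 ± 1.13 for Rgs2, 6.85 ± 0.767 for Bdnf, 6.01 ± 0.224 for Arnt, 5.89 ± 1.01 for Ptgs2 and 5.56 ± 0.314 for Npas4 (n = 3). Rgs2 overlapped Bdnf over libraries, and Arnt, Ptgs2 and Npas4 overlapped in turn. Within each Control library, however, Rgs2 was above Bdnf (7.39, 9.45 and 9.21 against 6.49, 7.73 and 6.32 FPKM). Arnt was likewise above Npas4 in each, while the place of Ptgs2 against these genes differed between libraries. In TAF15 OE the level was 40.9 ± 4.37 FPKM for Arnt2 and 37.6 ± 2.79 FPKM for Plk2. Their means had changed places, but their ranges overlapped and Plk2 was still above Arnt2 in TAF15 OE 1. Nptx2 (11.1 ± 1.44), Rgs2 (9.57 ± 1.01), Bdnf (8.25 ± 1.56), Arnt (6.39 ± 0.473) and Ptgs2 (4.90 ± 1.18) followed, each overlapping the next of these 5. Npas4, at 1.81 ± 0.961 FPKM, lay below Ptgs2 in every TAF15 OE library, whereas in Control the same 2 genes overlapped.

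**Figure D4:**
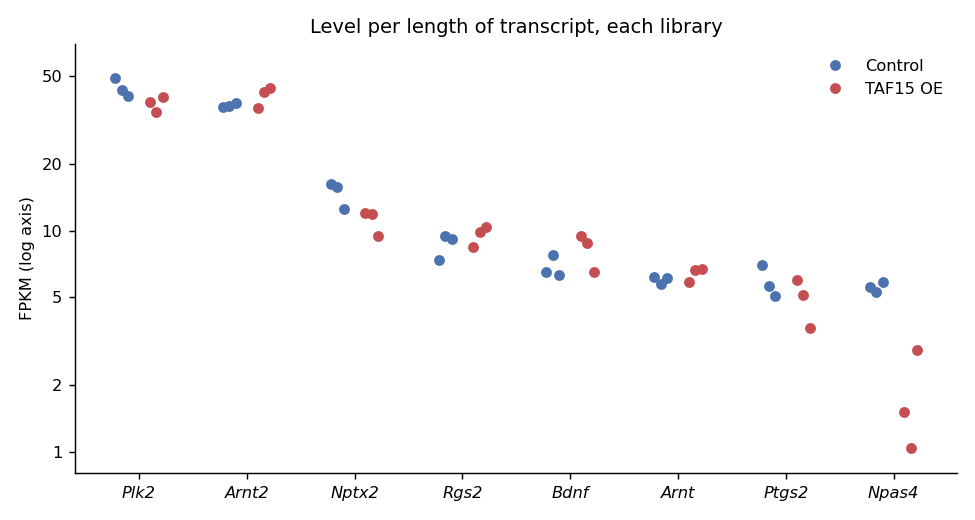
FPKM of each gene in each library, on a log axis, ordered by the Control mean, with Control in blue and TAF15 OE in red (3 mice each). Npas4 sits beside Arnt and Ptgs2 in Control, between 5.25 and 5.88 FPKM, and between 1.04 and 2.89 FPKM in TAF15 OE.

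The lists of other bHLH-PAS genes, of the complexes that NPAS4 dimers recruit and of regulators are read beside the 9.32% of all tested genes called higher and the 5.95% called lower, and were not tested as sets. Of 11 tested bHLH-PAS genes 3 rose and 0 fell (median log2 fold change -0.035): the hypoxia factor genes Hif1a (0.30, SE 0.071, adjusted p = 0.0166) and Epas1 (0.27, SE 0.071, adjusted p = 0.0286), the latter strong in endothelium, and Npas3 (0.44, SE 0.11, adjusted p = 0.0252). Endothelial and astrocyte markers were higher in the same libraries, and their part in these rises was not tested. Sim1 and Sim2 were not tested. Of 18 subunits of NuA4, the acetyltransferase complex with which NPAS4 acts on chromatin in neurons, 1 fell, the neuronal actin-related subunit gene Actl6b (-0.34, SE 0.069, adjusted p = 0.00817), and the median was -0.041. Of 6 genes of the NCoR corepressor complex, which ARNT2 recruits in resting neurons, 0 were called by edgeR as reported, by DESeq2 or by limma, with 2 at an unadjusted p below 0.05 in the edgeR fit (Ncor1 at -0.23 and Tbl1x at 0.23) and a median of 0.012. Ncor1 was called lower without a filter (adjusted p = 0.0119) and without TAF15 OE 1 (0.0221), Tbl1x was called higher with total counts (0.0497), and 3 of the 6 were called higher under presynaptic scaling. Without Control 1 and TAF15 OE 1, and with the replicate number as a block, 1 of the 6 was called lower. Of 11 reported upstream regulators of Npas4, 3 fell (median -0.12): the calcineurin subunit gene Ppp3ca (-0.58, SE 0.095, adjusted p = 0.00313), Srf, the gene of serum response factor (-0.44, SE 0.081, adjusted p = 0.00510), and the activity-regulated factor gene Mef2d (-0.27, SE 0.081, adjusted p = 0.0411). Creb1, whose product binds CRE sites, was at 0.020 (SE 0.092, adjusted p = 0.915). Others not called had an unadjusted p below 0.05 in the edgeR fit. They were Rest (0.44, adjusted p = 0.0855) and Nr3c1 (0.19, adjusted p = 0.158), both higher, and Hdac5 (-0.19, adjusted p = 0.122). The 5 further reported targets, Iqsec3, Syt10, Mdm2, Cdk5 and Gem, had a median of -0.070. Of them, 1 was called: Gem, a small GTP-binding protein gene that restrains calcium channels, rose from 2.66 ± 0.356 to 5.22 ± 0.275 CPM (n = 3 each, 0.97, SE 0.21, adjusted p = 0.0115).

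Genes that work with the products of the targets are given against the same background, in which 9.32% of all tested genes were called higher and 5.95% lower. Of 11 genes of BDNF processing and reception 1 rose, the receptor gene Ntrk2 (0.37, SE 0.063, adjusted p = 0.00372), which astrocytes also express in a truncated form, and the list median was -0.041. Of 5 pentraxin genes and partners, Nptxr (-0.31, SE 0.090, adjusted p = 0.0412), a membrane-bound pentraxin, and the AMPA receptor gene Gria1 (-0.59, SE 0.076, adjusted p = 9.54e-04) fell. Adam17, whose protease cuts NPTXR free, rose (0.65, SE 0.13, adjusted p = 0.00907), and the median was -0.31. The list of polo-like kinase genes and PLK2 substrates was shortened to 7 genes after its values were seen, so its count is a description only. Of the 7, 3 substrate genes fell and 0 genes rose (median -0.31): Rasgrf1 (-0.40, SE 0.075, adjusted p = 0.00566), Rapgef2 (-0.32, SE 0.075, adjusted p = 0.0158) and Sipa1l1 (-0.33, SE 0.10, adjusted p = 0.0498). Excitatory neuron and presynaptic markers were lower in the same libraries, and their part in these falls, and in those of Gria1, Ppp3ca and the other neuronal genes named, was not tested. Of 10 tested R4-class RGS and Gq genes, the Gq pathway genes Plcb1 (-0.32, SE 0.076, adjusted p = 0.0166) and Gnaq (-0.33, SE 0.096, adjusted p = 0.0428) fell and the pericyte gene Rgs5 (0.46, SE 0.13, adjusted p = 0.0448) rose, with a median of 0.22. Of 16 tested prostaglandin genes 6 rose and 0 fell (median 0.48). They included the prostaglandin D synthase gene Hpgds (1.11, SE 0.14, adjusted p = 9.43e-04), the thromboxane synthase gene Tbxas1 (1.25, SE 0.20, adjusted p = 0.00319), Ptgs1 (0.79, SE 0.16, adjusted p = 0.00981) and the prostaglandin E2 receptor gene Ptger4 (1.40, SE 0.34, adjusted p = 0.0197). Hpgds, Tbxas1 and Ptgs1 are expressed by microglia, whose markers rose in the same libraries, and their part in the rise was not tested.

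Many of these calls did not hold with 5 libraries, where fewer genes were called in all (1331 to 2501, against 2559 with 6). The sign of each of the 22 genes that the naming rule took from these lists was the same under all 17 alternatives, except that of Mef2d under presynaptic scaling. Hif1a, Epas1, Mef2d, Nptxr, Sipa1l1, Rgs5, Gnaq, Plcb1 and Ptger4 were not called without Control 1 (adjusted p of 0.0554 to 0.161). Epas1, Npas3, Nptxr, Rgs5, Ptgs1 and Ptger4 were not called without Control 2 (0.0511 to 0.1501). Npas3, Mef2d, Nptxr, Sipa1l1, Rapgef2, Rgs5, Gnaq, Plcb1 and Ptger4 were not called without Control 3 (0.0546 to 0.138). Epas1, Npas3 and Ptger4 were not called without TAF15 OE 1 (0.0610 to 0.0883) or without both library 1 samples (0.0707 to 0.129). Hif1a, Epas1, Npas3, Mef2d, Nptxr, Sipa1l1, Rapgef2, Rgs5 and Gnaq were not called without TAF15 OE 2 (0.0508 to 0.167, with Plcb1 and Ptger4) or TAF15 OE 3 (0.0520 to 0.1499). The count of genes that fell in the shortened polo-like kinase list was thus 1 to 3 with single libraries left out and 3 without both library 1 samples, and the count of prostaglandin genes that rose was 2 to 5 and 4. Slco2a1, the prostaglandin transporter gene, was called lower without TAF15 OE 1 (-0.78, adjusted p = 0.0229) and without both library 1 samples (-0.67, 0.0461). Gem, Ppp3ca, Ntrk2, Gria1, Adam17 and Hpgds were called under each of the 17 alternatives. These do not include the limit of an absolute log2 fold change of at least 1, which Hpgds reached and Gem, Ppp3ca, Ntrk2, Gria1 and Adam17 did not. By limma on FPKM 9 of the 22 were not called with either pseudocount (Mef2d, Nptxr, Sipa1l1, Rapgef2, Rgs5, Gnaq, Plcb1, Tbxas1 and Ptger4, adjusted p of 0.0540 to 0.121). With total counts Mef2d, Nptxr and Sipa1l1 were not called, by limma-voom Sipa1l1 and Rgs5, and with a mean of at least 1 CPM Sipa1l1 (0.0506 to 0.0557 over these). Under presynaptic scaling 9 of the falls were not called (Actl6b, Mef2d, Srf, Nptxr, Sipa1l1, Rapgef2, Rasgrf1, Gnaq and Plcb1, adjusted p of 0.156 to 0.886), and Mef2d turned to 0.021. That scaling moved the median of all tested genes from 0.026 to 0.32, and all genes with it. The list medians moved to between -0.027 (polo-like kinases and substrates) and 0.77 (prostaglandin genes).

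**Figure D5:**
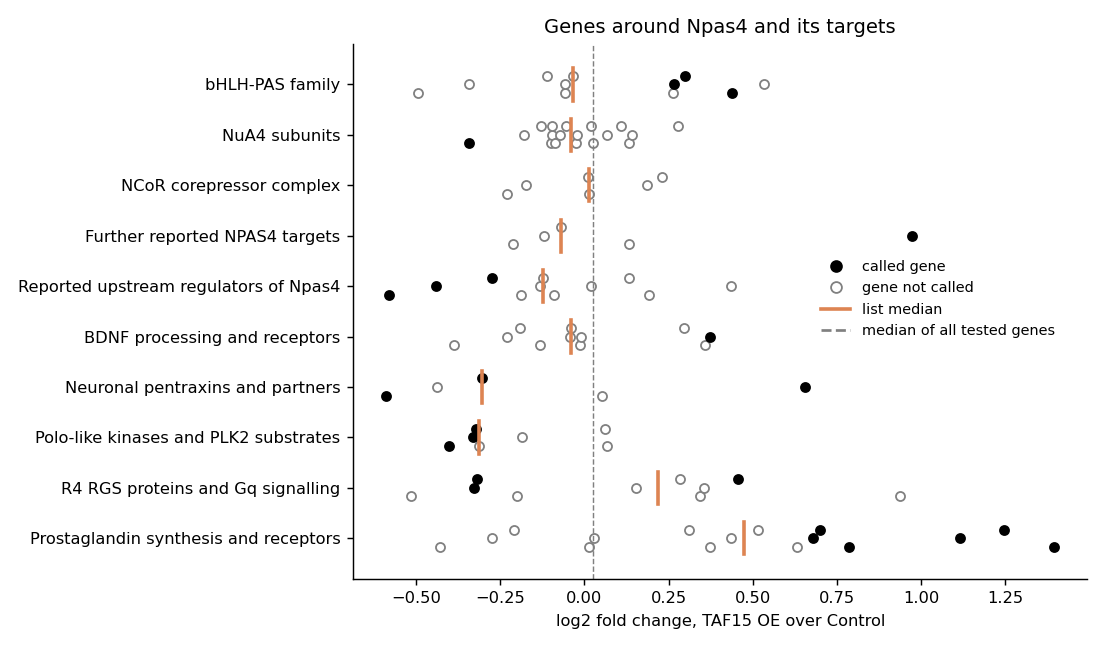
Log2 fold change, TAF15 OE over Control, of the tested genes of 10 lists around Npas4 and its targets. Filled points were called by edgeR at adjusted p below 0.05, orange bars are list medians and the dashed line is the median of all tested genes (0.026). The median of the prostaglandin genes is 0.48 and that of the pentraxin list -0.31 (0.77 and -0.015 with presynaptic scaling), and the list of polo-like kinases and substrates was shortened after its values were seen.

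The genes whose level followed Npas4 most closely over the 6 libraries, by Pearson's r of log2 CPM among 12896 candidates, were Slc6a17 (r = 0.995), Spred3 (0.992), Pnkd (0.991), Ndufb2 (0.9897) and Slc25a15 (0.989). They share with Npas4 the difference between the groups and the libraries themselves. Within groups, the r of the deviations from the group means was between 0.944 and 0.974, since TAF15 OE 3 was the highest and TAF15 OE 2 the lowest of its group in each. Slc6a17, which encodes a transporter of synaptic vesicles, stood at 563, 563 and 559 CPM in Control 1, 2 and 3 and at 460, 445 and 507 CPM in TAF15 OE 1, 2 and 3. Spred3, of a family that restrains Ras signalling, stood at 61.6, 62.3 and 62.8 CPM in Control and at 43.6, 41.7 and 53.8 CPM in TAF15 OE. Both shared the order of the TAF15 OE libraries with Npas4. Both changed less, by -0.25 (SE 0.069) and -0.42 (SE 0.097) on the log2 scale. The genes were picked by r from 12896 candidates over these same 6 libraries. High r and a shared order can therefore come from the picking alone. No target was among these genes, but only the closest were named. Over the 6 libraries, r with Npas4 was 0.837 for Plk2, 0.550 for Nptx2, 0.246 for Ptgs2, -0.240 for Rgs2 and -0.731 for Bdnf. For the deviations from the group means it was 0.486, -0.663, -0.621, 0.208 and -0.796 in the same order. These last values rest mostly on the TAF15 OE libraries, as the SD of Npas4 was 6.38% of its mean in Control and 52.1% in TAF15 OE. TAF15 OE 3 was the highest of its group for Npas4 and the lowest for Bdnf, Nptx2 and Ptgs2. The r values were not tested, and so few libraries do not show how targets move with Npas4 within groups.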

How the data were processed

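Hippocampal RNA of 3 Control and 3 TAF15 OE mice was sequenced, and titles gave the groups and replicate numbers. The submitters' processing notes name HISAT2 2.1.0, TopHat2, Bowtie2 2.2.3 and CASAVA as tools and GRCm38 as the build. Their roles, the counter, its annotation and the strand setting are not given in the sources used here. Raw counts per gene were deposited as whole numbers, and the deposited FPKM values are the authors' own, scaled by gene length and library total. In the authors' table, per the file headers, stand the same counts, a normalised signal (mean of scaled counts), the fold change as a ratio, its log2 value, and the p-value and adjusted p-value of a test that is not named.

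Counts were tested in R 4.3.3 with edgeR 4.0.16 (filterByExpr with a minimum count of 10 and a minimum total of 15, TMM scaling, robust quasi-likelihood F-test on group, Benjamini-Hochberg over 16758 genes). A gene was called where its adjusted p was under 0.05. TMM factors ran from 0.964 to 1.03. SE came from the F statistic, and 95% intervals from the SE and its degrees of freedom. CPM are relative to the scaled library, and log2 CPM used a prior count of 2. Ratios of FPKM were compared by exact two-sided permutation. Intervals and counts cover these samples only, and separate animals are the replicates. Symbols and positions came from the authors' table, overlaps from GENCODE M21, and promoters and motifs from RefSeq windows searched in Python 3.11.15. The fits with all 6 libraries and the usual filter were run on simulated counts with the same dispersion for every gene. A spread like that of Npas4 in TAF15 OE was therefore not covered. Fits with another filter or none, or with libraries left out, were not simulated. No 2 libraries were duplicates.

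Alternatives were DESeq2 1.42.0 and its size factors, total counts, presynaptic scaling, a filter at a mean of 1 CPM or none, limma 3.58.1 (voom, and trend on log2(FPKM + 1) or log2(FPKM + 0.1) for genes with a mean FPKM of at least 0.5), the replicate number as a block, an absolute log2 fold change of at least 1, and libraries left out. The 17 alternatives counted in the text do not include the limit on the fold change. On the log2(FPKM + pseudocount) scale a fold change understates that of low genes. The members, lists and tests were chosen with earlier results of these data known. Named were all members, Taf15, the called genes of each list (the 4 with the smallest p where more were called), and the 5 protein-coding genes closest to Npas4 among those whose mean log2 CPM reached 1. Creb1, Rest, Nr3c1, Hdac5, Ncor1, Tbl1x and Slco2a1 were added after their values were seen. The list of polo-like kinases and substrates was shortened after its values were seen, and 2 of its genes are not reported here.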

Additional observations from a re-analysis of the deposited data

How the results depend on the processing

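The number of members called was 2 in the reported fit. It was 5 with presynaptic scaling (Npas4 lower, and Arnt, Arnt2, Bdnf and Rgs2 higher, with 41.6% of all genes called). Without a filter it was 4, with 3576 of 30821 genes called (11.6%). It was 1 by limma-trend on FPKM (both pseudocounts) and 1 with the first library of each group removed. When a fold change of 2 either way was also required it was 1, and with 1 library left out 0 to 2. The number of genes called was 2559, and 6971 with presynaptic scaling (98.1% of them higher, against 61.0% in the reported fit and 71.97% with total counts), 1551 and 1630 by limma-trend (FPKM + 1 and FPKM + 0.1), 557 with the fold change required, and 1331 to 2501 with 1 library left out. Npas4 was negative under all 17 alternatives (-2.17 to -1.28 on the log2 scale), called under 12 of them, and not called with the first library of each group removed (-1.56) and with 4 of the 6 single libraries left out (all 6 between -2.17 and -1.41). The sign of Arnt turned without Control 2 (-0.0032) or TAF15 OE 2 (-0.0029; -0.0032 to 0.073 over the 6 single libraries), and that of Plk2 under presynaptic scaling (0.010, which moves all genes and leaves Plk2 at -0.31 relative to the median). The cause of the other changes was not tested. With the replicate number as a block, 4 members were called, as Plk2 (adjusted p = 0.0197) and Ptgs2 (0.0486) joined, and 3291 genes, and of the named list genes Rgs5 was not called (0.132). The labels give no meaning to the shared numbers, and the deviations of same-numbered samples correlated at 0.126, 0.0776 and 0.0871, so the pairing was not used, although each sample correlated best with its own number. With 3 mice a group, the smallest exact two-sided p is 0.1, and the intervals of the dimer partners still allow changes of up to 19.98%.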
